A study of Mus musculus with 6 samples.

Results

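The genes described here encode the nuclear-encoded subunits of the mitochondrial respiratory chain and ATP synthase, measured in mouse liver. Members were chosen by gene name, as every array row whose description named a subunit of NADH dehydrogenase, succinate dehydrogenase, ubiquinol-cytochrome c reductase, cytochrome c oxidase or ATP synthase. The rule took 121 of 44170 rows, and the row with the highest mean was kept for each gene name, which left 94 members of 36549 features in all. Complex I had 40 members, complex II had 4, complex III had 13, complex IV had 18 and complex V had 19. By name, 75 members were structural subunits, 3 were assembly factors or chaperones (Ndufaf1, Uqcc1 and Cox17), and 16 were rows described only as similar to a subunit, of which 12 carried gene IDs that RefSeq lists as pseudogenes.

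The compared groups were livers of mice given 0.01 µg LPS together with 20 mg GalN (LPS/GalN, n = 3) and livers of mice given the same LPS alone (LPS, n = 3), both taken 2.5 hours after treatment. LPS is bacterial lipopolysaccharide, and GalN is the hepatotoxic amino sugar D-galactosamine, which makes mice far more sensitive to LPS. All animals were wild-type C57 BL/6 males of 9 to 10 weeks, and the labels describe the replicates as separate treatments. Every mouse received LPS, so the comparison concerns the addition of GalN and holds no unstimulated liver.

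The respiratory chain moves electrons from NADH (complex I) and succinate (complex II) through ubiquinone to complex III, and through cytochrome c to oxygen at complex IV. The proton gradient built by complexes I, III and IV drives ATP synthesis by complex V. Hepatocytes are rich in mitochondria and draw on this system for gluconeogenesis, urea synthesis and fatty acid oxidation. A small set of core subunits is encoded in mitochondrial DNA, and the nuclear-encoded subunits described here are imported after translation in the cytosol.

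Each of the 6 arrays, 1 per mouse, held the same 44170 rows with a median intensity between 60.4 and 63.1. A row of random-sequence probes, used as the background level, lay between 31.3 and 34.7 on the linear scale. Arrays correlated at r = 0.952 to 0.970 within groups and 0.916 to 0.947 between groups (log2 intensity, across rows). All 10 hepatocyte markers lay above the random-probe row on all 6 arrays. Their summed intensity was 369796 to 401642 on the LPS/GalN arrays and 404814 to 430873 on the LPS arrays. Some arrays stood apart in transcripts of other tissues. The 10 measured thymus markers summed to 14640 and 9335 on LPS/GalN replicates 2 and 3, against 670 on LPS/GalN replicate 1 and 723 to 1010 on the LPS arrays. The 9 measured intestine markers summed to 2137 to 2692 on the LPS/GalN arrays, 26185 and 28533 on LPS replicates 1 and 2, and 3451 on LPS replicate 3. Only 4 of the thymus and 5 of the intestine markers lay above the random-probe row on every array. The 10 measured endothelial markers summed to 14707 to 17465 on the LPS/GalN arrays and 7318 to 10914 on the LPS arrays, with 3 called higher. The 7 Kupffer cell markers summed to 7815 to 10539 on the LPS/GalN arrays and 4762 to 6534 on the LPS arrays, with a median difference of 0.59, 7 of 7 above 0 and 0 called. The 7 measured neutrophil markers, of which 3 lay above the random-probe row on every array, summed to 1048 to 1887 on the LPS/GalN arrays and 2709 to 3710 on the LPS arrays. Their median difference was −0.54, and S100a8 (−1.66, limma adjusted p = 0.013) and S100a9 (−1.55, limma adjusted p = 0.014) were called lower. The part of these markers in the results below was not tested, and the values without LPS/GalN replicates 2 and 3 and without LPS replicates 1 and 2 are given where they bear on a result.

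The respiratory chain genes differed little between the groups. In limma's moderated test across all features, with Benjamini-Hochberg adjustment and an adjusted p below 0.05 as the threshold, 0 of the 94 members were called higher and 1 was called lower. The background over all 36549 features was 0.605% called higher and 3.04% called lower. At an unadjusted p below 0.05 the count was also 1 of 94, against 17.5% of all features. When the variance prior was allowed to follow intensity, 12 members reached an unadjusted p below 0.05 in the higher direction, and the lowest adjusted p among them was 0.0949. The log2 difference was smaller than 0.5 in either direction for 92 of 94 members, against 70.3% of all features, and the exceptions were Ndufa4l2 and Cox8c. Rows that were not kept could differ by more, as given below for Uqcrc1 and Uqcr11. A row of Ndufa11 that was not kept had a mean of 11.02 log2, against 11.23 for the kept row. It differed by 0.56, against 0.14 (limma adjusted p over all rows 0.20 and 0.78). The 95% interval of the difference lay within 1 log2 unit of 0 for 89 of 94 members, against 48.8% of all features. Small differences and narrow intervals were not particular to the members. Among features with a mean log2 over 12, the shares were 84.7% for differences under 0.5 and 81.9% for intervals within 1 log2. The same shares were 87.7% and 82.2% for mitochondrial ribosomal proteins, and 100% and 100% for cytosolic ribosomal proteins.

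The differences leaned to one side. The difference was above 0 for 79 of 94 members (84.0%), against 54.9% of all features, and the members' median was 0.17 log2 (1.12-fold), against 0.05 for all features. The 3 LPS/GalN arrays lay wholly above the 3 LPS arrays for 33 members, against a background of 12.9%, and wholly below them for 3 members, Cox8c, Cox17 and Dmac2l, against 11.1%. Most members are bright on these arrays, and the median of bright features also lay above 0. The 10 hepatocyte markers had a median difference of −0.13, with 2 above 0. Their median level of 15.33 log2 lay close to the top of the scale. Among the 1565 features with a mean log2 intensity over 12, a level chosen after the values were seen, the median difference was 0.16, and 72.8% lay above 0. Groups did not overlap in the higher direction for 33.6% of these features and in the lower direction for 14.4%. The 53 members over that level had a median of 0.20, with 50 above 0, 26 without overlap in the higher direction and 0 in the lower direction. Of the features over that level 2 were called higher and 94 (6.01%) lower, and none of the 53 members was.

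**Figure D1:**
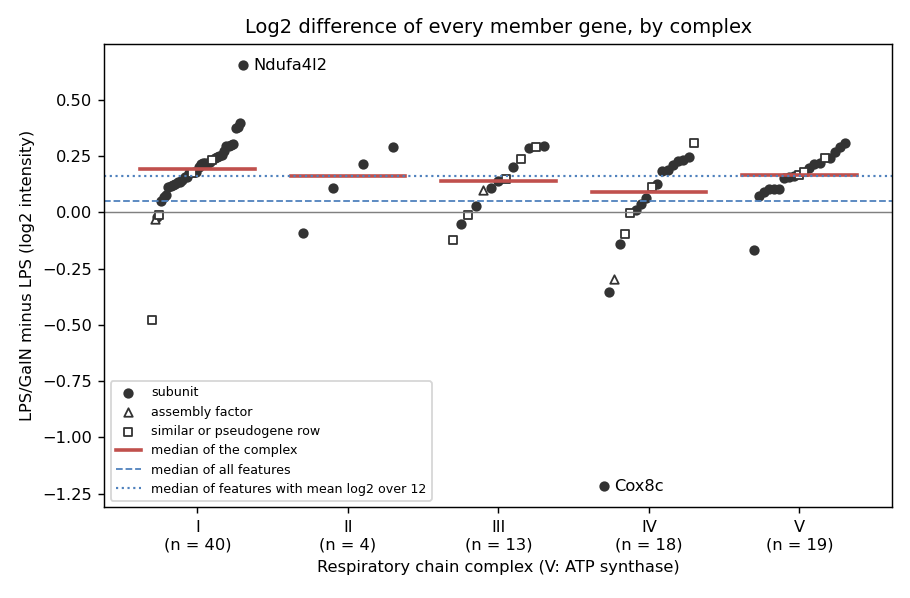
Log2 difference (LPS/GalN minus LPS, y axis) of each of the 94 members, ordered by value within each complex (x axis), with filled circles for structural subunits, triangles for assembly factors, squares for rows described only as similar to a subunit, and a red bar for the median of the complex. Most points of each complex lie between 0 and 0.4, around the dotted line at the median of features with a mean log2 over 12. Of the 94 members 79 lie above 0, and the lowest and highest are Cox8c at −1.22 and Ndufa4l2 at 0.65.

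In complex I, which oxidises NADH and passes the electrons to ubiquinone, 36 of 40 members had a difference above 0, with a median of 0.19. The flavoproteins and iron-sulphur proteins, which include the subunits that bind NADH and carry the electrons, were above 0 in 10 of 10, between 0.05 and 0.30. Ndufv1, the NADH-binding flavoprotein, measured 12.79, 12.57 and 12.71 log2 on the LPS/GalN arrays and 12.33, 12.29 and 12.54 on the LPS arrays. The groups did not overlap, but the difference of 0.30 (95% interval −0.18 to 0.79) did not pass the test (limma adjusted p = 0.52). Ndufs1, the largest iron-sulphur subunit, measured 10.80, 10.65 and 11.48 log2 on the LPS/GalN arrays and 10.87, 11.002 and 10.83 on the LPS arrays. LPS/GalN replicate 3 was the highest and LPS/GalN replicate 2 the lowest of all 6, so the groups overlapped, and the difference was 0.08. Ndufs7 and Ndufs8, which lie on the route to ubiquinone, differed by 0.11 and 0.14 log2, and Ndufv2 by 0.22. None of these core subunits passed the test.

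The alpha subcomplex of complex I, accessory subunits by name, was above 0 in 14 of 14 members (0.12 to 0.65), and the beta subcomplex, named for subunits of the membrane arm, in 9 of 9 (0.12 to 0.40). Ndufb4, at chr16:37647690-37654455 (mm9), measured 11.46, 11.42 and 11.73 log2 on the LPS/GalN arrays and 11.16, 11.33 and 10.93 on the LPS arrays. Every LPS/GalN array lay above every LPS array, and the difference of 0.40 (95% interval −0.12 to 0.92) had a limma adjusted p of 0.42. Ndufc1, a small membrane subunit, was the only structural subunit of complex I below 0, at −0.02. Ndufaf1, an assembly factor for complex I, measured 8.35 ± 0.53 log2 in LPS/GalN and 8.38 ± 0.48 in LPS livers (SD, n = 3 each).

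Ndufa4 and Ndufa4l2 form a pair of related genes. Ndufa4 carries a complex I name although its protein was later assigned to complex IV, and Ndufa4l2 is known as a target of hypoxia-inducible factor. Ndufa4 measured 13.01, 13.26 and 13.09 log2 on the LPS/GalN arrays and 12.84, 12.82 and 12.83 on the LPS arrays, without overlap. Ndufa4l2 (chr10:126951994-126954210, mm9) measured 7.92, 7.74 and 7.77 log2 on the LPS/GalN arrays and 7.74, 6.25 and 7.48 on the LPS arrays. Its difference of 0.65, the highest among the members, rested on LPS replicate 2, the other LPS arrays lying close to the LPS/GalN arrays. The 95% interval ran from −0.23 to 1.54 (limma adjusted p = 0.44), and without LPS replicate 2 the difference was 0.20 (adjusted p = 0.82).

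Complex II links the citric acid cycle to the chain, and all 4 of its subunits were members, with a median difference of 0.16, or 0.09 without LPS replicate 3. Sdha, the flavoprotein that oxidises succinate, measured 15.05, 15.07 and 14.94 log2 on the LPS/GalN arrays and 15.12, 15.18 and 15.04 on the LPS arrays. The groups overlapped, the difference was −0.09 (95% interval −0.56 to 0.38), and the row lay close to the highest value on any array, 15.83 to 15.92. Sdhb, the iron-sulphur subunit, measured 12.61, 12.69 and 12.78 log2 on the LPS/GalN arrays and 12.33, 12.60 and 12.27 on the LPS arrays. These did not overlap, and the difference of 0.29 had a limma adjusted p of 0.55. The membrane anchors Sdhc and Sdhd differed by 0.21 and 0.11 log2.

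Complex III, which passes electrons from ubiquinol to cytochrome c, had a median difference of 0.14, with 10 of 13 members above 0. Among the 7 structural subunits that the rule took, the differences ran from −0.05 for Uqcr11 to 0.29 for Uqcrc1. Cyc1, cytochrome c1 of complex III, was not taken by the rule. It differed by 0.41 without overlap between groups (limma adjusted p = 0.40). Uqcrc2, a core protein, and Uqcrfs1, the Rieske iron-sulphur protein, differed by 0.14 and 0.20 log2. The rows named Uqcrc1 lay on different chromosomes. The brightest row, on chromosome 9, had a mean of 12.01 log2 and a difference of 0.29. The other rows carried the same gene name but lay on chromosome X, with means of 8.98 and 5.65, and differed by −0.60 and −0.38. RefSeq places Uqcrc1 on chromosome 9, and which transcripts the chromosome X rows measure is not settled. The mean of the 3 rows, −0.23, therefore mixes loci. Uqcr11 differed by −0.05 in its brighter row and by 0.80 in its dimmer row, both at the same locus. Neither value passed the test (limma adjusted p over all rows 0.93 and 0.18). In all, 23 members had more than 1 row, and for 16 of them every row had the same sign. The 23 members take in rows on another chromosome, for Uqcrc1 and Uqcrb. They also take in rows at background, such as that of Ndufa13 with a mean of 4.76, where the sign cannot be read.

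Complex IV, which reduces oxygen to water, had a median of 0.09, with 12 of 18 members above 0. That median was 0.0031 without LPS replicate 3 and 0.18 without LPS replicate 2. Cox4i1, the regulatory subunit found in most tissues, measured 14.25, 14.25 and 14.07 log2 on the LPS/GalN arrays and 14.28, 14.21 and 13.97 on the LPS arrays, with overlap and a difference of 0.04. Cox5a and Cox5b, nuclear-encoded subunits on the matrix side of the complex, differed by 0.24 and 0.19 log2 without overlap between groups, and neither passed the test. Cox17, a copper chaperone for complex IV, measured 8.43, 8.40 and 8.50 log2 on the LPS/GalN arrays and 8.83, 8.77 and 8.62 on the LPS arrays. All LPS/GalN arrays lay below the LPS arrays, and the difference of −0.30 had a limma adjusted p of 0.52.

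Cox8c was the single member past the threshold. It encodes an isoform of subunit VIII known mainly from testis, beside the widely expressed Cox8a and the heart and muscle form Cox8b. At chr12:104137542-104138587 (mm9), it measured 6.62, 5.86 and 6.27 log2 on the LPS/GalN arrays and 7.38, 7.58 and 7.45 on the LPS arrays. Every LPS/GalN array lay below every LPS array, and all 6 lay above the random-probe row. The difference was −1.22 log2 (95% interval −1.81 to −0.63; limma adjusted p = 0.042), a ratio of 0.43. The call was close to the threshold and held in 6 of 16 alternative settings, with adjusted p between 0.0138 and 0.464. Leaving out LPS/GalN replicates 2 and 3, with the high thymus markers, gave −0.84 (adjusted p = 0.34), and leaving out LPS replicates 1 and 2, with the high intestine markers, gave −1.20 (adjusted p = 0.46), each leaving 1 array in a group that was assumed to vary like the others.

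The other subunit VIII isoforms did not pass the test. Cox8a measured 14.35, 14.37 and 14.60 log2 on the LPS/GalN arrays and 14.37, 14.52 and 14.24 on the LPS arrays, with overlap and a difference of 0.06. Cox8b lay near the random-probe row, at 5.13, 4.57 and 5.44 log2 on the LPS/GalN arrays and 5.15, 5.30 and 5.75 on the LPS arrays, and the groups overlapped. The muscle form Cox6a2 was as dim, at 5.43, 5.02 and 5.26 log2 on the LPS/GalN arrays and 5.06, 5.94 and 4.68 on the LPS arrays. Its liver counterpart Cox6a1 averaged 13.91 ± 0.12 log2 in LPS/GalN and 13.72 ± 0.06 in LPS livers (SD, n = 3 each), a difference of 0.18. Cox7a1, another heart and muscle form, measured 7.13, 7.15 and 6.93 log2 on the LPS/GalN arrays and 8.02, 7.82 and 5.80 on the LPS arrays. The high LPS arrays were replicates 1 and 2, those with the high intestine markers, and without them the difference changed sign, with 1.27 against −0.14 over all arrays (limma adjusted p = 0.32 and 0.93). Cox7a2 and Cox6b1, the forms found in liver, differed by 0.12 and 0.23 log2.

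**Figure D2:**
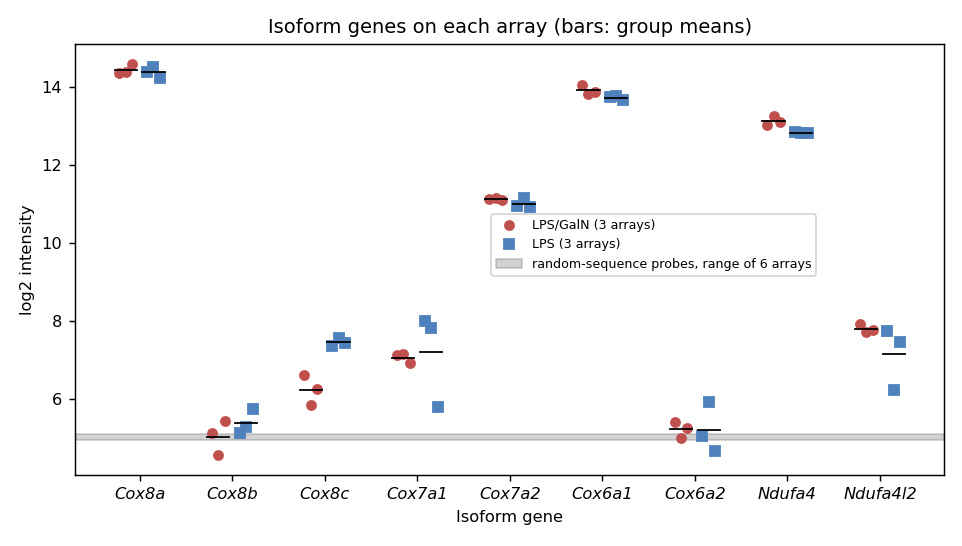
Log2 intensity (y axis) of the isoform genes (x axis) on the 3 LPS/GalN arrays (red circles, left) and the 3 LPS arrays (blue squares, right), with black bars for group means and a grey band for the random-sequence probes over the 6 arrays; levels can be compared between groups within a gene, not between genes. The Cox8c groups are apart, with 5.86 to 6.62 in LPS/GalN and 7.38 to 7.58 in LPS, while Cox8b and Cox6a2 lie around the grey band.

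In complex V, 18 of 19 members had a difference above 0, with a median of 0.16. The F1 subunits and the O subunit of the stalk were above 0 in 6 of 6, between 0.15 and 0.29. Atp5b, the catalytic beta subunit, measured 15.11, 15.09 and 15.10 log2 on the LPS/GalN arrays and 14.96, 15.003 and 14.88 on the LPS arrays. The groups did not overlap, yet the difference was only 0.15 (95% interval −0.31 to 0.61; limma adjusted p = 0.76), and like Sdha the row lay close to the top of the scale. Atp5a1 and Atp5c1, the alpha and gamma subunits, differed by 0.27 and 0.16 log2. Atp5e, the epsilon subunit, differed by 0.29 without overlap.

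The F0 members, which form the proton channel and its stalk, were above 0 in 9 of 10, between −0.17 and 0.31. Atp5g1, Atp5g2 and Atp5g3 encode the same mature c-ring protein with different import sequences. Atp5g2 measured 12.51, 12.52 and 12.46 log2 on the LPS/GalN arrays and 12.27, 12.20 and 12.10 on the LPS arrays, without overlap, and its difference of 0.31 had a limma adjusted p of 0.49. Atp5g1 and Atp5g3 differed by 0.11 and 0.21 log2, both with overlap. Dmac2l, named in the files as subunit s of the F0 complex, was the only complex V member below 0, at 6.68, 6.45 and 6.69 log2 on the LPS/GalN arrays and 6.70, 6.77 and 6.84 on the LPS arrays, a difference of −0.17.

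**Figure D3:**
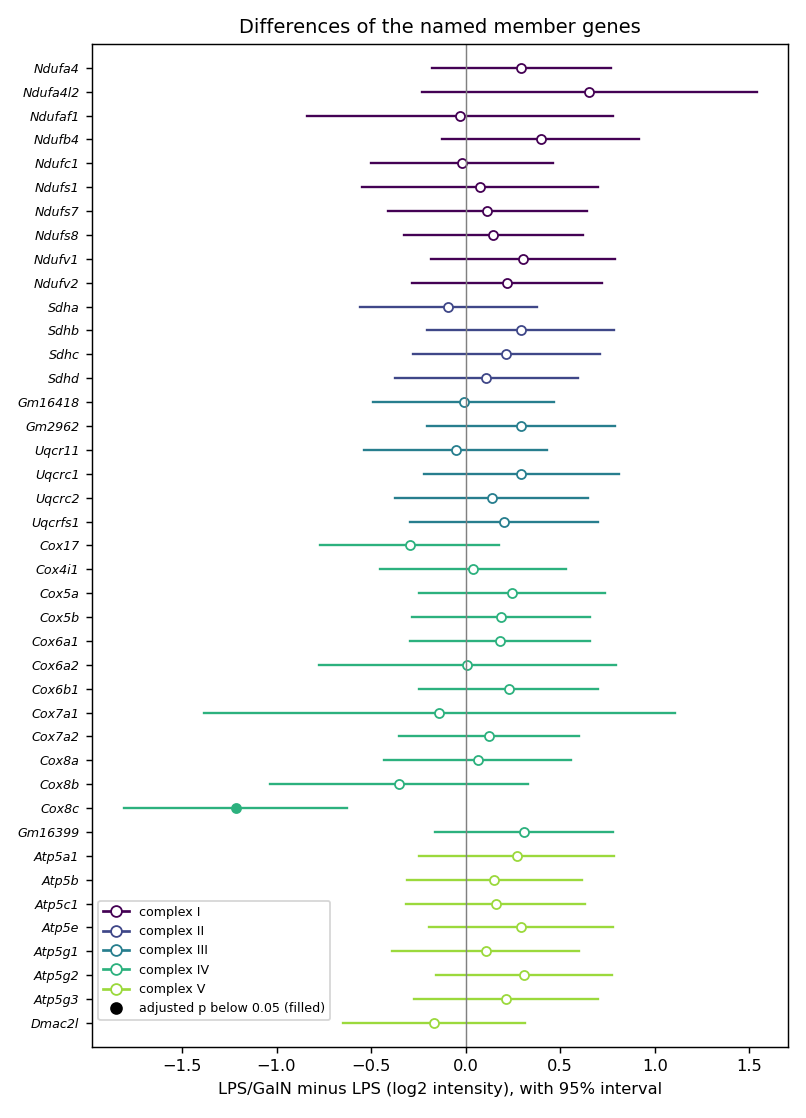
Log2 difference (LPS/GalN minus LPS, x axis) with its unadjusted 95% interval from limma for 41 named members (y axis), coloured by complex, a filled point marking an adjusted p below 0.05. Cox8c alone is filled, at −1.22, and the other 40 intervals include 0.

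The 16 rows described only as similar to a subunit had a median difference of 0.16, with 10 above 0 and none past the threshold. Gm16399 (complex IV) and Gm2962 (complex III) differed by 0.31 and 0.29 log2, and Gm16418 (complex III) by −0.01. Probes for a processed pseudogene can share sequence with the parent gene, so the signal of such a row and of its parent cannot be told apart here. Some of the 16 rows lay at a locus already counted. Cox5b-ps, Atp5l2-ps and AK019085 lay at the positions of Cox5b, Atp5l and Uqcrh, and AK078590 within that of Ndufs1. RefSeq places the Cox5b-ps and Atp5l2-ps pseudogenes on other chromosomes, 13 and 11. Without the 16 rows and the assembly factors, the 75 structural subunits had a median of 0.18, with 68 above 0, 0 called higher and 1 called lower.

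The members' levels were also compared array by array. Relative to each gene's mean over the 6 arrays, the median member stood at 0.05, 0.07 and 0.12 log2 on LPS/GalN replicates 1, 2 and 3, against −0.07, −0.01 and −0.17 on LPS replicates 1, 2 and 3. Features with a mean log2 over 12 stood at 0.05, 0.05 and 0.09 on the LPS/GalN arrays and at −0.07 on each LPS array. LPS replicate 3 was the lowest array for 55 of 94 members (58.5%), against 25.6% of the features over that level. LPS/GalN replicate 3 was the highest for 39 members (41.5%), against 31.8%. The members' median was 0.14 without LPS replicate 3 and also 0.14 without LPS/GalN replicate 3. It was 0.26 without LPS replicates 1 and 2 and 0.13 without LPS/GalN replicates 2 and 3. In whole liver, fewer cells of a type and less RNA per cell cannot be told apart.

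**Figure D4:**
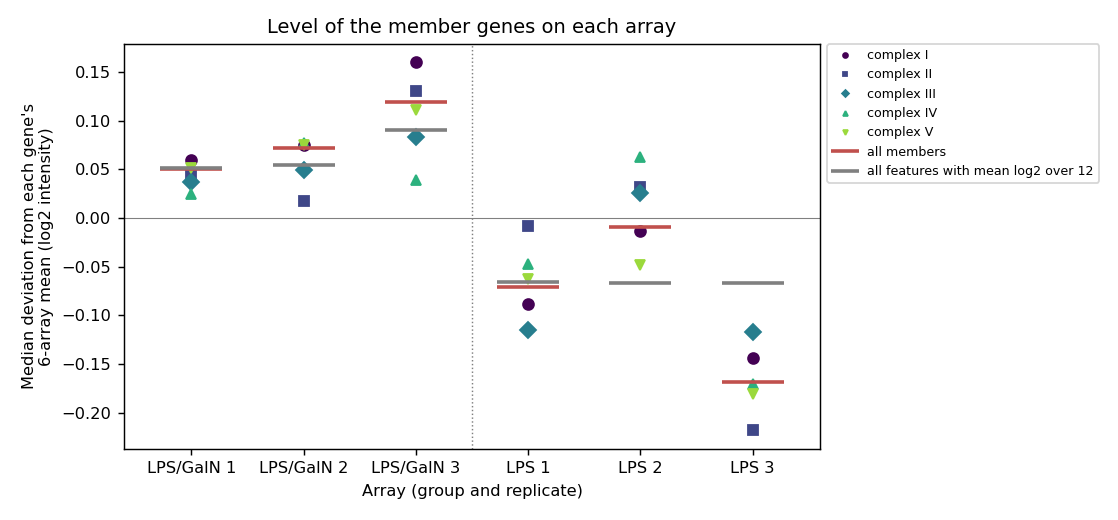
Median deviation of the members from each gene's 6-array mean (log2, y axis) on each array (x axis, LPS/GalN left, LPS right), by complex (coloured symbols), over all members (red bars) and over all features with a mean log2 over 12 (grey bars). The red bars lie between 0.05 and 0.12 on the LPS/GalN arrays and between −0.17 and −0.01 on the LPS arrays, with LPS replicate 3 the lowest.

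Promoter sequence was examined because the members leaned the same way. Many such genes are known to carry sites for NRF1, for ETS factors such as GABP, for YY1 and for the ERR receptors. RefSeq promoter windows (GRCm38.p6), from 250 bases before to 50 after the start, were available for 63 of the 78 members with a subunit or assembly factor name and for 27025 genes in all. The NRF1 letters (GCGC, any base, then TGCGC), searched on both strands like the others, were present in 17 of 63 members (27.0%), against 5.19% of all genes. The letters CCGGAAG (ETS) were present in 16 members (25.4%), against 9.93% of genes. The letters AAGATGGCG (YY1), which can share bases with the ETS letters, were present in 7 (11.1%), against 1.64%, and TCAAGGTCA (ERR) in 2 (3.17%), against 0.47%. The windows were not matched for base composition. The 17 members with the NRF1 letters had a median difference of 0.18, and the other members with a window had 0.16. For the other letters the members with them had the lower median. The medians with and without were 0.11 and 0.19 for ETS, 0.11 and 0.19 for YY1, and 0.16 and 0.18 for ERR. The 34 members with any of these letters had a median of 0.15, and those with none had 0.21.

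The stretches below are the 250 bases before the start, 5′ to 3′ on the gene's strand (minus in each case), with matched letters in capitals and are shown as pairs of members with like motif content and their own differences. Ndufb4 (chr16:37654369-37654618) and Sdha (chr13:74350241-74350490) each held 3 NRF1 matches, and their differences were 0.40 and −0.09 log2. Sdhd (chr9:50603850-50604099) and Cox6a1 (chr5:115348959-115349208) held both NRF1 and ETS matches, and their differences were 0.11 and 0.18 log2.
Ndufb4: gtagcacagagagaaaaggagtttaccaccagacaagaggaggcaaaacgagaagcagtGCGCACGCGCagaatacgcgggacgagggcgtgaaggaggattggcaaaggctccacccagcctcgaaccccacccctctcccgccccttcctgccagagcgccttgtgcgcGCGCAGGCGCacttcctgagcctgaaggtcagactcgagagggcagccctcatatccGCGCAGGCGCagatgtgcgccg
Sdha: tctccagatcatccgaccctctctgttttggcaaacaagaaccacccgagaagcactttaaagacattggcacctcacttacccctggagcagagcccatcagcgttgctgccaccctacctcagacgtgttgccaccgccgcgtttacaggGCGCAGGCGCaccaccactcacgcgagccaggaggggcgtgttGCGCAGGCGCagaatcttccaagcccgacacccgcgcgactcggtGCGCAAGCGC
Sdhd: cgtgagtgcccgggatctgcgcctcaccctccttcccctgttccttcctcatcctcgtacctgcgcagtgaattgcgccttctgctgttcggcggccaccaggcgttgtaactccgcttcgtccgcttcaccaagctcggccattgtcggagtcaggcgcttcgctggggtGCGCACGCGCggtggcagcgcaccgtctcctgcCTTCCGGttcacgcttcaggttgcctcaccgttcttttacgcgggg
Cox6a1: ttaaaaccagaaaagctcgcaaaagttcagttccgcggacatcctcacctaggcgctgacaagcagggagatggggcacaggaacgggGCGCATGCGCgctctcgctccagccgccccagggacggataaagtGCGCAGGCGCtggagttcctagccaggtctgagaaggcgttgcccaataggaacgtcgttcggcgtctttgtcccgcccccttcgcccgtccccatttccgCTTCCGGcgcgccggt

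Genes around the chain were described from lists of known genes. The assembly factors include the members Ndufaf1, Uqcc1 and Cox17, and the electron carriers include Cyc1 of complex III. Of 23 measured assembly factors, 0 were called in either direction, with a median difference of 0.09 log2. The 17 measured genes of the mobile electron carriers, ubiquinone synthesis and ubiquinone-linked dehydrogenases had a median of 0.15. The 8 genes of ATP export, coupling and outer membrane channels, which include Ucp2 and Atp5if1, had a median of 0.22. The 17 measured genes of pyruvate oxidation and the citric acid cycle had a median of 0.08. In each of these lists 0 were again called in either direction. Cycs, cytochrome c, averaged 11.22 ± 0.15 log2 in LPS/GalN and 11.19 ± 0.04 in LPS livers (SD, n = 3 each), a difference of 0.02. Dhodh, the pyrimidine synthesis enzyme that passes electrons to ubiquinone, measured 8.93, 9.03 and 9.04 log2 on the LPS/GalN arrays and 8.71, 8.70 and 8.92 on the LPS arrays. Its groups did not overlap, and the difference of 0.23 had a limma adjusted p of 0.64. The mitochondrially encoded mt-Co1, the only one of 13 such genes matched to a row by name, differed by 0.06.

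Among 13 measured regulators of mitochondrial biogenesis, 0 were called higher and 1 was called lower. Pprc1, a coactivator related to PGC-1α and known as a serum-responsive gene, measured 7.62, 8.28 and 8.01 log2 on the LPS/GalN arrays and 9.06, 9.53 and 9.05 on the LPS arrays. All LPS/GalN arrays lay below the LPS arrays, and the difference was −1.25 (95% interval −1.86 to −0.64; limma adjusted p = 0.044), a call that held in 7 of 16 alternative settings (adjusted p 0.0058 to 0.495). Ppargc1a, which encodes PGC-1α, measured 6.79, 5.04 and 7.32 log2 on the LPS/GalN arrays and 7.60, 7.30 and 7.59 on the LPS arrays. LPS/GalN replicate 2 lay far below the rest, under the random-probe row of that array (5.10), and LPS/GalN replicate 3 overlapped the LPS arrays. The difference of −1.11 thus leaned on a value at background and had an interval from −2.33 to 0.11 (limma adjusted p = 0.33). The transcription factors Nrf1 and Tfam differed by less than 0.5 log2. Gabpa, at 0.50 (limma adjusted p = 0.28), and Twnk, at 0.67 (limma adjusted p = 0.23), were higher in LPS/GalN without overlap, and neither was called. Of the 13 regulators, 7 had a difference above 0, with a median of 0.12.

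Ribosomal protein genes gave a similar picture. The 73 mitochondrial ribosomal proteins had a median difference of 0.18 with 54 above 0, and the 70 cytosolic ribosomal proteins had a median of 0.21 with 66 above 0. In both lists 0 genes were called in either direction. The respiratory chain median of 0.17 was thus no higher than that of either list, and no test between the lists was made.

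**Figure D5:**
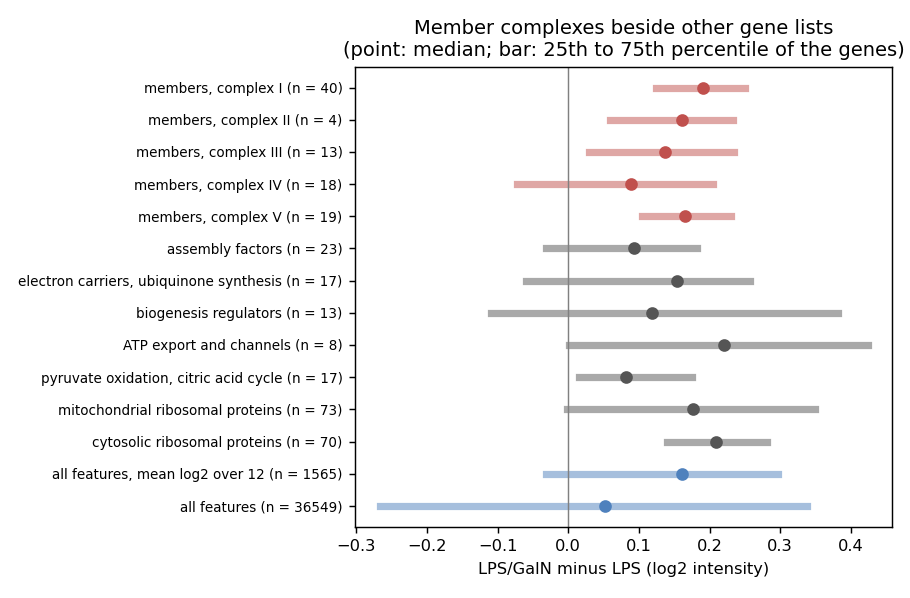
Median log2 difference (LPS/GalN minus LPS, x axis; points) with the 25th to 75th percentile of the genes (bars) for the member complexes (red), other gene lists (grey) and all features (blue). The medians of the member complexes, 0.09 to 0.19, lie within the range of the other lists, 0.08 to 0.22.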

How the data were processed

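Liver RNA was hybridised to single-colour (Cy3) NimbleGen expression arrays, 1 per mouse. The deposited files give 1 intensity per target row and array on a linear scale, made by the authors with RMA, which by design corrects background, equalises the arrays' distributions and summarises probes, per the submitters' processing notes; its version and options were not stated there. The deposited value table of 18076 rows holds the same intensity values for rows of at least 50 on every array. Gene names, mm9 positions and probe counts came from the row descriptions.

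Intensities were log2-transformed. Rows sharing a gene name were joined by keeping the row with the highest mean over the 6 arrays, and the 14019 rows without a gene name stayed separate. limma 3.58.1 (R 4.3.3) was fitted to all 36549 features with group as the only term, eBayes without trend (prior degrees of freedom 4.03), and p-values were adjusted by Benjamini-Hochberg; adjusted p below 0.05 was called. The moderated errors lean on the spread of all features: the members' median standard error was 0.212, and 0.137 with an intensity trend. Symbols were assigned by hand to 78 gene names, and all 78 lay on the chromosome RefSeq gives. Members and lists were chosen with earlier results of these data known. Named genes were every member past the threshold, per complex up to 2 highest and 2 lowest differences among members above the random-probe row on all 6 arrays, fixed core subunits and isoforms, and pathway genes past the threshold plus Ppargc1a, Cycs and Dhodh; other names in the text were chosen after their values were seen. One of the fixed core subunits is not reported here. The number of arrays limits the precision.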

Additional observations from a re-analysis of the deposited data

How the results depend on the processing

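The members' median difference was above 0 in every alternative run, 0.134 to 0.259, and 0 members were called higher in any. Members called lower numbered 1, or 0 with trend and robust fitting, repeated quantile normalization, the replicate block, and leaving out either pair of replicates with foreign markers; without single replicates the count was 0 to 1. Cox8c then had an adjusted p of 0.057 with trend and robust fitting, 0.0515 with quantile normalization and 0.104 with the replicate block. Features called higher, 221, numbered 903 with trend and robust fitting, 388 with a filter on dim features, 648 with the deposited value table, 113 with the replicate block, 0 without LPS replicates 1 and 2, 19 without LPS/GalN replicates 2 and 3, and 40 to 632 without single replicates. Features called lower, 1111, numbered 0 and 244 without those pairs, 663 to 1108 without single replicates, 1639 with trend and robust fitting, and 831 with the block. Replicate numbers did not pair arrays: deviations of same-numbered arrays correlated at 0.007 to 0.032. Without LPS replicates 1 and 2 the medians of complexes I, II, IV and V were 0.284, 0.299, 0.250 and 0.263. Of the alternatives for named genes, 708 kept their side of the threshold, 19 (Cox8c and Pprc1) lost the call, and 5 uncalled values changed sign by more than the replicate spread: Ndufv2 (−0.06), Uqcr11 (0.37) and Uqcrc1 (−0.23) with the mean of a gene's rows, Uqcr11 (0.08) without LPS/GalN replicates 2 and 3, and Cox7a1 (1.27) without LPS replicates 1 and 2. The Uqcrc1 mean takes in the rows on chromosome X. The cause of these changes was not tested. Dim rows such as Cox8b and Cox6a2 lie at background, where differences cannot be read.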

Other observations

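Some genes around the chain, named after their values were seen, differed in both directions by more than most members did, although none passed the test. In the ubiquinone pathway, Pdss1, which builds the side chain of ubiquinone, measured 7.94, 7.52 and 8.40 log2 on the LPS/GalN arrays and 9.13, 9.66 and 8.99 on the LPS arrays, a difference of −1.30 (limma adjusted p = 0.061). Coq10b, a ubiquinone-binding protein, differed by −0.89, and Coq8a, an atypical kinase-like protein needed for ubiquinone synthesis, by 0.64, both without overlap between groups. Among assembly factors, Ndufaf2 differed by 0.70 and Foxred1 by −0.77, again without overlap, both being known for complex I assembly. Slc25a4, a heart and muscle form of the ADP/ATP carrier, measured 9.57, 10.30 and 9.64 log2 on the LPS/GalN arrays and 8.38, 9.32 and 9.33 on the LPS arrays, with LPS replicate 1 the lowest and a difference of 0.83 (limma adjusted p = 0.26).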
